A study of Mus musculus with 26 samples.

Results

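The region described here is a 4.2 Mb segment of mouse chromosome 1 that runs from Ctse to Phlda3 and Tnni1. Its members were the genes that start between positions 131600000 and 135800000 on GRCm38 and that passed the filter on low counts in at least 1 of 3 cell types. The segment was proposed from the comparison of ACKR2-/- with WT small peritoneal macrophages (SPMs), so the SPM values below chose it and are given as a description with no test. Of the 136 genes listed in the segment, 70 were members, among 1107 such genes on chromosome 1 and 18292 in the series. Among the members 54 were protein-coding and 39 lay on the plus strand. In monocytes 46 members passed the filter, in SPMs 48 and in MHCII negative lung macrophages 65. There were 39 members that passed in all 3 cell types and 16 that passed only in lung macrophages.

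The genes of the segment share a place on the chromosome and not a pathway. Ctse encodes cathepsin E, an aspartic protease of endosomes, and its neighbour Rab7b encodes a small GTPase of late endosomes that directs the traffic of Toll-like receptors in macrophages. Btg2 encodes an antiproliferative protein that is induced by p53 and promotes the removal of poly-A tails from mRNA. Chil1 encodes a secreted chitinase-like lectin without enzyme activity that myeloid cells make in inflammation, Ppfia4 encodes liprin-alpha-4, a scaffold of adhesion sites and synapses, and Phlda3 encodes a p53 target that restrains Akt. ACKR2 is an atypical receptor that takes up and degrades inflammatory chemokines, and its gene lies on another chromosome.

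RNA was sequenced from cells sorted from naïve female mice, either WT C57BL/6J or ACKR2-/-, which lack the receptor in all cells. The WT mice were purchased and the ACKR2-/- mice came from a colony kept as homozygotes at the University of Glasgow, so the source of the mice and the genotype cannot be told apart, and the methods give an age of 8 to 10 weeks unless stated otherwise. Each genotype had 4 samples of bone marrow monocytes, 4 of SPMs and 5 of lung macrophages. Each monocyte and SPM sample pooled the cells of 5 mice, while for the lung the sources used here do not state how many mice went into a sample.

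Reads on genes numbered 15450670 to 19218213 per sample in monocytes, 12781144 to 35400034 in SPMs and 19950019 to 29770252 in lung macrophages. Ackr2 itself was counted in 4 of 4 WT SPM samples (0.24 to 0.616 CPM, the counts-per-million scale) and in 0 of 4 ACKR2-/- SPM samples, and in monocytes 2 reads were counted in all, both in 1 WT sample. In the lung, WT replicates 1 to 4 held 7.75 to 22.1 CPM and the ACKR2-/- samples 0.282 to 1.64 CPM, but the library labelled WT replicate 5 held 0 reads of Ackr2, so lung values that turn on it are also given without it. WT lung replicate 3 held 21242 CPM of H2-Ab1, an MHC class II gene, against 565.8 to 1708 in the other WT lung samples. Among WT SPM samples, replicate 1 stood apart, holding the highest value of the genotype for 43.1% of tested genes and the lowest for 41.2%. The markers of the sorted cells were present and none was at 0 in its own cell type. Their lowest summed level was 4915 CPM for 6 monocyte markers in monocytes, 25297 CPM for 7 SPM markers in SPMs and 1130 CPM for 7 lung macrophage markers in the lung. In monocytes, 9 of 10 T cell markers were called higher in ACKR2-/- samples, and their summed level was 3.78 to 5.37 CPM in WT and 68.1 to 126.3 CPM in ACKR2-/- samples, with none of the 10 at 0.

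Promoters of Btg2, Chil1, Ppfia4 and Phlda3 are printed here to show the sequence at the start of genes whose SPM values differed between the genotypes. RefSeq gave 300 bases (250 before and 50 after a gene start, GRCm38.p6) for 52 of the 70 members, these 4 included but not Ctse or Rab7b. Rab29, which lies between Rab7b and Btg2 and had like levels in both genotypes, is shown for comparison. The letters searched on either strand were the TATA box TATAAA, the CCAAT box CCAAT, the GC box GGGCGG, the PU.1 letters GAGGAA, the AP-1 letters TGANTCA and the cAMP response element TGACGTCA. Matches are in capitals, and adjacent or overlapping matches run together.
Btg2, chr1:134079106-134079405, minus strand: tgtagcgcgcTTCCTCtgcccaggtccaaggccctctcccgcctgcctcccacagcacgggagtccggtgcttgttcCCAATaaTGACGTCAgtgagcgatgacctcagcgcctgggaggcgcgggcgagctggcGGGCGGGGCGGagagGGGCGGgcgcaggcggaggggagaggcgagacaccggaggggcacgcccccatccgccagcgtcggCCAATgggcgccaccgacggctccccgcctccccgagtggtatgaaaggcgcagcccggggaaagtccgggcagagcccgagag
Chil1, chr1:134181906-134182205, plus strand: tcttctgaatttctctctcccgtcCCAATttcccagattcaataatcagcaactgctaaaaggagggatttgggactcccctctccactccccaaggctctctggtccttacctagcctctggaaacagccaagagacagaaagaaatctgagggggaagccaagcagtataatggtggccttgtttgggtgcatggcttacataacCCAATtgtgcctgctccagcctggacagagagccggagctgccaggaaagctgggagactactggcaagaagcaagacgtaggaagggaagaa
Ppfia4, chr1:134332879-134333178, minus strand: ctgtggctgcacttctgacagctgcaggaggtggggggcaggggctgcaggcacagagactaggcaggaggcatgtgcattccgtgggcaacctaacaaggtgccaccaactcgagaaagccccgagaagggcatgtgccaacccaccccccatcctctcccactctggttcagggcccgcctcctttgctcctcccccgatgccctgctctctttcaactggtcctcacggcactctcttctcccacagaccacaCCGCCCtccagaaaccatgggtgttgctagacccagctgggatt
Phlda3, chr1:135765835-135766134, plus strand: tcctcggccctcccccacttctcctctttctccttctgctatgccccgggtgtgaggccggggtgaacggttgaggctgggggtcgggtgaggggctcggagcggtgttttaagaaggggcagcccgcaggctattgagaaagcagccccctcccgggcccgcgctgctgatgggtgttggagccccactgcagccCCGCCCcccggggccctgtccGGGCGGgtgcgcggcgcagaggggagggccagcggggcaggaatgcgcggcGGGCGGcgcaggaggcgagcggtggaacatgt
Rab29, chr1:131867027-131867326, plus strand: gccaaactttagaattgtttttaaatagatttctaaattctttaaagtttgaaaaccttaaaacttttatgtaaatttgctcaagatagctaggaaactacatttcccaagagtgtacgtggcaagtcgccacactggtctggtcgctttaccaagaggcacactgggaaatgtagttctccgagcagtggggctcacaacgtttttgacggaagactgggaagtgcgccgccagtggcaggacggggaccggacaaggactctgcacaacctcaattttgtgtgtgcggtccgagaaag
The RefSeq starts used lay 0 to 53 bases from the gene starts in the deposited tables. The Btg2 promoter held 7 matches, of which 3 were GGGCGG, 2 CCAAT, 1 TTCCTC (the reverse of GAGGAA) and 1 TGACGTCA. Chil1 held CCAAT 2 times and none of the other letters, Phlda3 held GGGCGG 3 times counting both strands, and Ppfia4 held it 1 time, within the transcript. The Rab29 promoter held none of them. Among all 32851 promoters of this length, TGACGTCA occurred in 1.79%, TGANTCA in 7.81%, TATAAA in 13.6%, GAGGAA in 28.3%, GGGCGG in 35.7% and CCAAT in 37.4%. Bases G and C made up 72% of the Btg2 promoter, 71.7% of that of Phlda3, 61.7% of that of Ppfia4, 51.3% of that of Chil1 and 45.3% of that of Rab29, against a median of 52.7%. A match of letters is a description of the window and not a measured binding site.

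In SPMs, 3 of the 48 tested members were called higher and 2 lower in ACKR2-/- samples (edgeR quasi-likelihood test, adjusted p under 0.05 and absolute log2 fold change over 0.5). Over all 12997 tested genes, 0.0308% were called higher and 0.0154% lower, so that the segment, which was selected on this contrast, held 5 of the 6 calls. Rab7b, Btg2 and Ppfia4 were higher, and Ctse and Chil1 were lower. In the plot along the segment 4 of these genes stand far apart from all other members. Btg2 (1.94) lies above the highest uncalled member (1.57) but is nearer to zero than the lowest (-2.48).

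**Figure D1:**
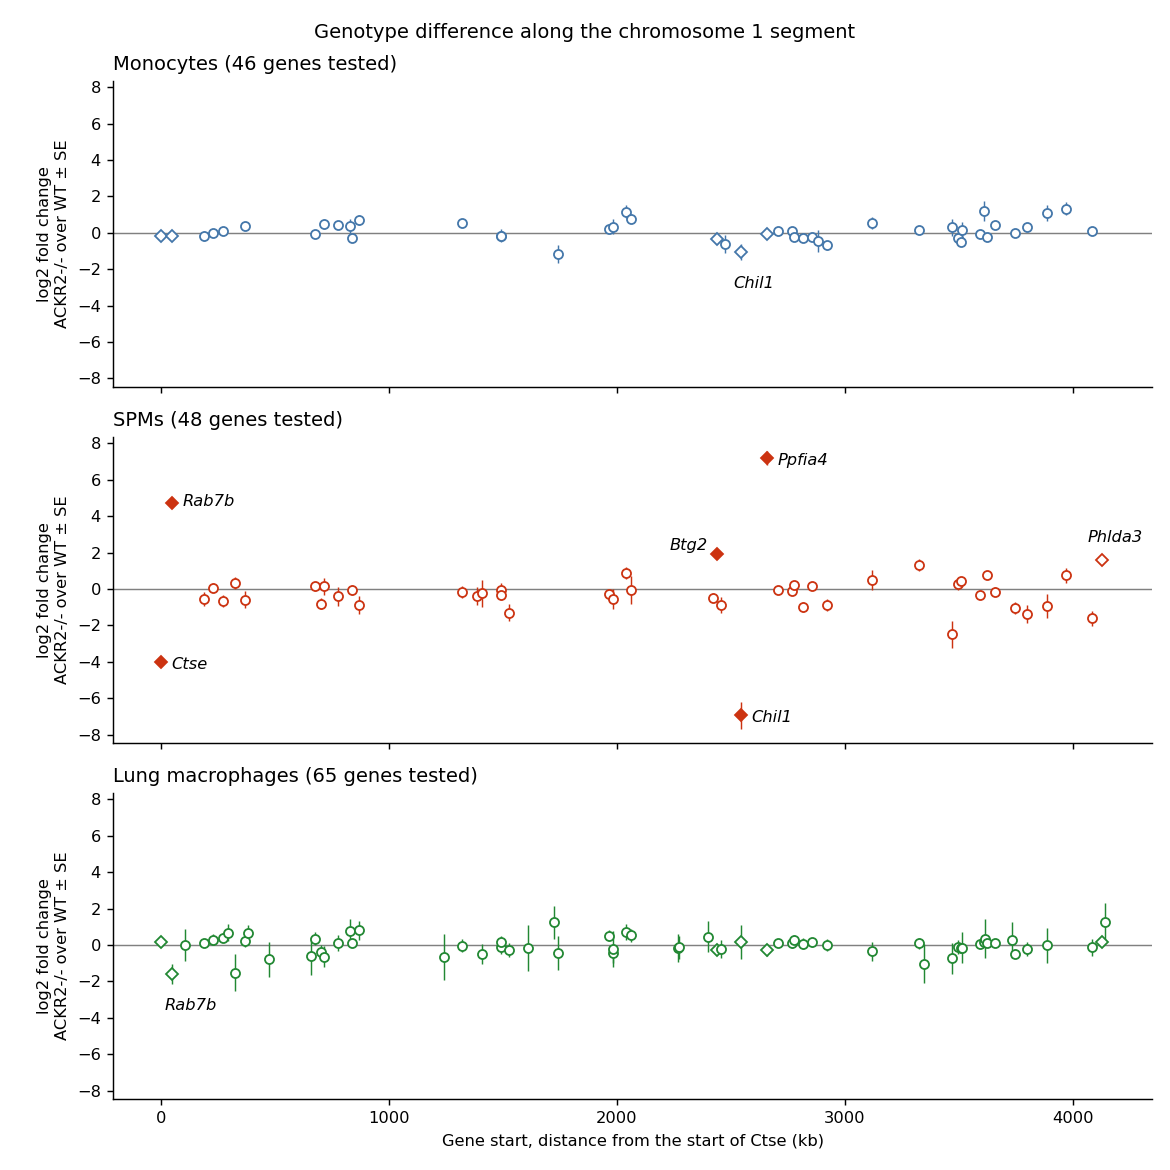
Log2 fold change (ACKR2-/- over WT, ± SE) of each tested member against the distance of its start from that of Ctse, in kb, for monocytes, SPMs and lung macrophages. Filled symbols are genes called by edgeR and diamonds are Ctse, Rab7b, Btg2, Chil1, Ppfia4 and Phlda3; in SPMs 5 genes reached log2 fold changes of -6.94 to 7.20, while in monocytes and lung macrophages all members stayed between -1.61 and 1.33.

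Ctse (chr1:131638306-131675505, plus strand) was the first gene of the segment. Its CPM in WT SPM replicates 1 to 4 was 21.5, 31.9, 35.3 and 38.8, and in ACKR2-/- replicates 1.76, 2.35, 2.22 and 1.62. Every ACKR2-/- sample was thus lower than every WT sample, and the fitted log2 fold change was -4.0 (SE 0.26, n = 4 per genotype). In monocytes the same gene held 11.7 to 17 CPM in WT and 9.93 to 16.1 in ACKR2-/- samples, and in lung macrophages 7.32 to 10.5 and 6.53 to 16.3. The genotypes overlapped in both.

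Rab7b (chr1:131688695-131715439, plus strand) starts 50.4 kb further along, with 13.2 kb between the genes and no tested gene between them, and moved in the opposite direction in SPMs. It held 3.88, 4.65, 3.17 and 4.21 CPM in WT SPMs and 91.2, 141.8, 128.6 and 64.1 in ACKR2-/- SPMs. The log2 fold change was 4.73 (SE 0.30, n = 4 per genotype), without overlap of the samples. ACKR2-/- SPMs held more Rab7b than the monocytes of either genotype, whose range was 31.5 to 51.7 CPM, though the cell types come from separate tables and this is not tested.

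Btg2 (chr1:134075170-134079120, minus strand) lies 2359.7 kb beyond Rab7b. Its CPM in WT SPMs was 47.6, 24.9, 21.2 and 24.3 and in ACKR2-/- SPMs 112.3, 101.0, 113.6 and 125.5. All ACKR2-/- samples were higher, with a log2 fold change of 1.94 (SE 0.27, n = 4 per genotype), and WT replicate 1 lay above the other WT samples. Without that library the difference was 2.27. This call was the least steady of the 5: it was kept when WT replicate 1 was left out and lost when any of the other 7 samples was.

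Chil1 (chr1:134182176-134190181, plus strand) starts 103.1 kb past the end of Btg2. It held 32.8, 112.6, 85.7 and 87.2 CPM in WT SPMs and 0.345, 0.403, 0.103 and 1.67 in ACKR2-/- SPMs. The genotypes were far apart, with 6201 reads summed over WT and 86 over ACKR2-/- samples and a log2 fold change of -6.94 (SE 0.75, n = 4 per genotype). ACKR2-/- replicate 4 held most of the reads of its genotype, and without it the log2 fold change was -8.17 and the call was kept. The call was lost when ACKR2-/- replicate 2 was left out, at a log2 fold change of -6.79.

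Ppfia4 (chr1:134296783-134332928, minus strand) is the next tested gene, 106.6 kb past Chil1, and had the largest rise in SPMs of any member. WT SPMs held 1, 2, 2 and 7 reads, or 0.0479, 0.103, 0.176 and 0.259 CPM, and ACKR2-/- SPMs held 27.3, 20.5, 21.1 and 22.2 CPM. The ratio of the genotypes in reads pooled over samples, scaled by total reads on genes alone, was 162. Its 95% interval of 92.8 to 315 covers counting error only. The fitted log2 fold change was 7.20 (SE 0.38, n = 4 per genotype). Of the WT samples, 3 were at or under 3 reads, the number that a count of 0 would still allow. In monocytes (72.7 to 118.2 CPM over both genotypes) and lung macrophages (23.7 to 69.6) the gene was expressed in every sample of both genotypes, so that WT SPMs were the group nearly without it. Without WT replicate 4, which held 7 of the WT reads in SPMs, the log2 fold change was 7.79 and the call was kept.

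Phlda3 (chr1:135766119-135769136, plus strand) was the last member that passed the filter in SPMs and was not called there. It held 0.958, 1.65, 1.14 and 1.37 CPM in WT and 3.07, 4.25, 3.74 and 4.23 in ACKR2-/- SPMs, a log2 fold change of 1.57 (SE 0.28, n = 4 per genotype) without overlap. DESeq2 and the fit without a filter on low counts called it. In monocytes it stayed below the filter, with sums of 18 WT and 19 ACKR2-/- reads.

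**Figure D2:**
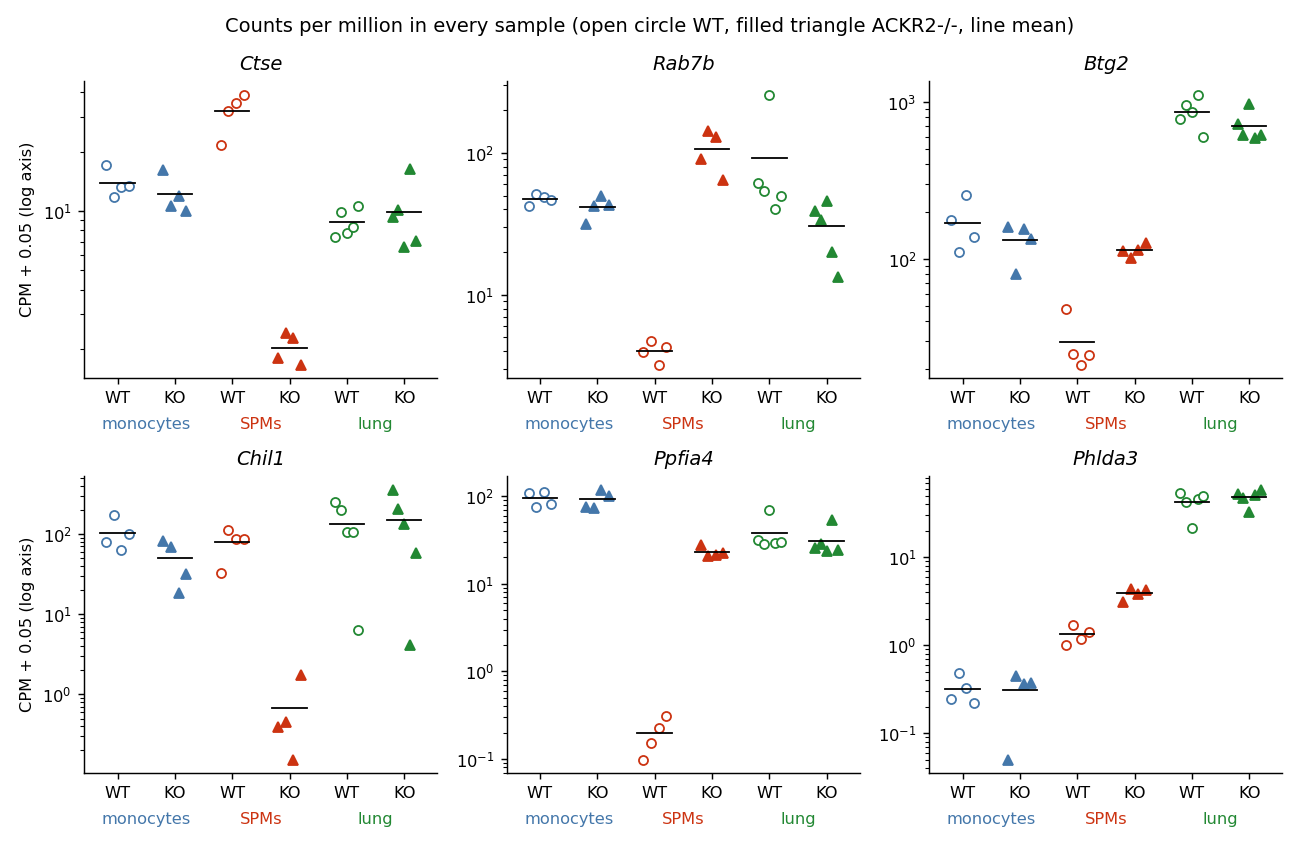
CPM plus 0.05, on a log axis, of 6 genes in every sample of the 3 cell types, with open circles for WT, filled triangles for ACKR2-/- (KO) and a line at the mean. In SPMs the genotypes do not overlap for any of the 6 genes, while in monocytes and lung macrophages they overlap for all of them.

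Among the 48 tested members in SPMs, 7 were higher and 6 lower in ACKR2-/- without overlap of the genotypes, where 1.8% and 1.6% of all tested genes were. The other genes with no overlap were Ube2t, an E2 ubiquitin enzyme of DNA crosslink repair (1.30), Lax1, an adaptor of lymphocyte receptors (0.88), and Rnpep, an aminopeptidase (0.76), which were higher, with log2 fold changes given in brackets. On the lower side were Ipo9, an importin (-1.06), Klhl12, an adaptor of the Cul3 ubiquitin ligase (-1.0), Kdm5b, a histone H3 lysine demethylase (-0.88), and an unnamed locus at chr1:134059609-134061686 (-0.48). Ipo9, Klhl12 and Kdm5b were highest in WT replicate 1, and without that library their log2 fold changes were -0.71, -0.73 and -0.46. Csrp1, which encodes an actin-binding LIM protein, was lower at -1.62 with overlapping samples (5.27 to 15.1 CPM in WT, 2.07 to 5.79 in ACKR2-/-) and was called by DESeq2. Ptprv, a receptor phosphatase locus annotated as a processed transcript, was at -2.48 from means of 1.04 and 0.194 CPM, with 2.59 CPM in WT replicate 1.

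From Rab7b to Btg2 there were 22 tested members, with log2 fold changes of -1.31 to 0.877, from Btg2 to Chil1 there was 1 (-0.871), and past Ppfia4 there were 20, from -2.48 to 1.57. With all samples, the uncalled Ptprv at -2.48 was thus farther from zero than the called Btg2 at 1.94, which was at 2.27 without WT replicate 1. Csrp1, Phlda3, Nav1, which encodes a microtubule-associated protein (-1.40), and Plekha6 (-1.31) were beyond 1 as well. Ptprv held 2.59 CPM in WT replicate 1 and 0.361 to 0.702 in the other WT samples, and Nav1 78.3 and 14.1 to 21.1. Csrp1, Phlda3 and Plekha6 were not highest in that library. Rab29, a GTPase that acts with the kinase LRRK2, held 52.0 to 120.8 CPM in WT and 87.0 to 105.9 in ACKR2-/- SPMs (0.07, SE 0.25). Adipor1, an adiponectin receptor that lies past Ppfia4, held 51.0 to 57.1 and 47.3 to 74.8 CPM (0.20, SE 0.19). Both genes had small differences although a called gene lay near them.

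By role, the 3 tested secreted or vesicle enzymes and lectins in SPMs had 2 lower calls (Ctse and Chil1) and 0 higher. Of 6 small GTPases and traffic genes 1 was called higher (Rab7b), of 6 growth arrest and stress genes 1 (Btg2), and of 8 kinases, phosphatases, adaptors and receptors 1 (Ppfia4). No member was called among 7 genes of transcription, chromatin, RNA and import, which all had negative log2 fold changes (-1.06 to -0.07), nor among 5 transporter and mitochondrial or 3 cytoskeletal genes. Of those 7 genes, Elk4, Nucks1, Zc3h11a, Ipo9 and Kdm5b were highest in WT replicate 1, while Rbbp5 and Snrpe were not. Elk4 held 21.1 CPM in that library, 4.75 to 5.68 in the other WT samples and 5.46 to 6.9 in ACKR2-/- samples. The lists were drawn up with results known, and 7235 of all 12997 tested genes in SPMs also had negative values.

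Over the 48 members in SPMs the median absolute log2 fold change was 0.55, against 0.25 over all tested genes, and 13 (27.1%) were beyond 1, where 4.89% of all tested genes were. The equally long stretch before the segment held 24 tested genes with a median absolute value of 0.29, of which 2 (8.33%) were beyond 1, and the stretch after it held 18 with 0.58, of which 2 (11.1%) were. Neither stretch held a called gene in SPMs. These values used the contrast that chose the segment and are not evidence about it.

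**Figure D3:**
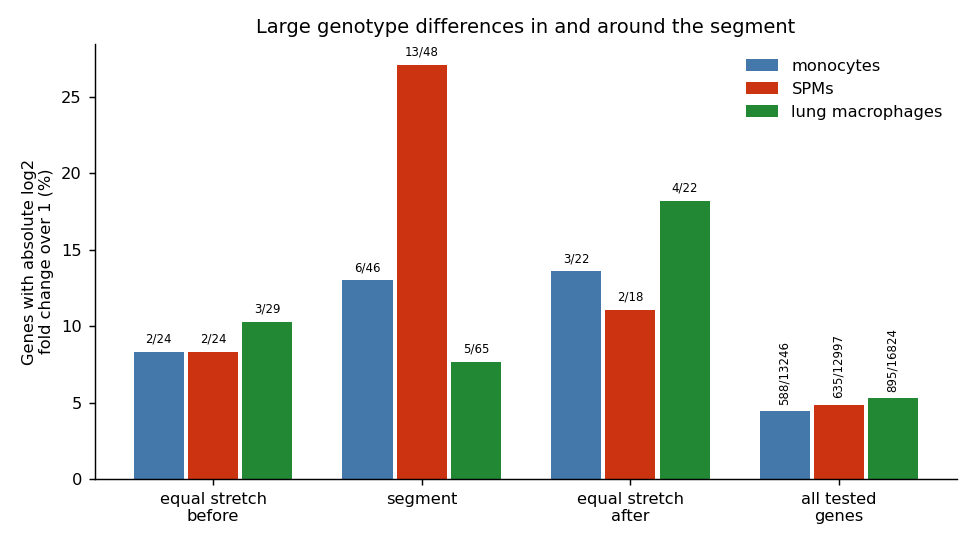
Percentage of tested genes with an absolute log2 fold change over 1 in the segment, in the equally long stretches before and after it and over all tested genes, in monocytes (blue), SPMs (red) and lung macrophages (green), with the number of genes above each bar. The SPM bar of the segment stands at 27.1% and its bars in the adjoining stretches at 8.33% and 11.1%.

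In monocytes none of the 46 tested members was called by edgeR (smallest adjusted p = 0.102), where 1.27% of all 13246 tested genes were. At an unadjusted p under 0.05, 9 members were higher and 5 lower, beside 8.83% and 8.17% of all tested genes. DESeq2 called 2 members higher, Atp2b4 and Gm38399. The genotypes did not overlap for 5 members that were higher and 0 that were lower, against 4.94% and 5.25% of tested genes, and 6 members (13%) had an absolute log2 fold change over 1, against 4.44%.

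The 5 members without overlap were Gm38399, Lax1, Atp2b4, Tmem81 and Dstyk. Gm38399, a long intergenic RNA locus that overlaps the edge of Nav1 on the same strand, held 0.782, 0.684, 0.612 and 0.671 CPM in WT and 1.18, 1.82, 1.21 and 2.71 in ACKR2-/- monocytes (log2 fold change 1.33, SE 0.36, edgeR adjusted p = 0.102). Lax1 held 0.456, 1.31, 0.723 and 1.12 CPM in WT and 1.88, 1.94, 1.89 and 2.39 in ACKR2-/- samples (1.16, SE 0.35, edgeR adjusted p = 0.133). Atp2b4, a calcium pump of the plasma membrane, held 5.23 to 7.33 and 7.33 to 15.3 CPM (0.78, SE 0.24, edgeR adjusted p = 0.137). Replicate 4 of both genotypes was at 7.33 CPM as printed, so this gene was without overlap only in further digits. Tmem81, a membrane protein, and Dstyk, a dual-specificity kinase, were at 0.69 (edgeR adjusted p = 0.220) and 0.42 (edgeR adjusted p = 0.139). Each of the 5 was at p = 0.0286 in the exact two-sided permutation test, the smallest that 4 samples against 4 allow. Samples without overlap always give this value, so it adds nothing to the lack of overlap by which these 5 were picked. The T cell markers that were higher in the same samples stand beside these values, and their part in them was not tested.

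The genes that differed most in SPMs had no called difference in monocytes. Chil1 held 80.1, 170.9, 62.1 and 100.5 CPM in WT and 82.6, 68.3, 18.3 and 31.4 in ACKR2-/- monocytes, lower on average but with overlapping samples (log2 fold change -1.04, SE 0.43, edgeR adjusted p = 0.243, exact permutation p = 0.143). Chil1 is also made by neutrophils, and the summed level of 6 neutrophil markers, none called, was 32512 to 74277 CPM in WT and 10774 to 45667 CPM in ACKR2-/- monocyte samples, and its part was not tested. Rab7b held 42.2 to 51.7 CPM in WT and 31.5 to 50 in ACKR2-/- monocytes (-0.18, SE 0.14, edgeR adjusted p = 0.541). Ctse was at -0.18 (SE 0.18, edgeR adjusted p = 0.640), Btg2 at -0.36 (SE 0.26, 0.499) and Ppfia4 at -0.04 (SE 0.18, 0.933). Arl8a, a GTPase that positions lysosomes, was at -0.48 (edgeR adjusted p = 0.221) and was called only when ACKR2-/- replicate 3 was left out, where Mdm4, an inhibitor of p53, was called higher as well.

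In lung macrophages no member was called among 65 tested, and neither was any of the 16824 tested genes (0%). DESeq2 called no member either, and 1 member, Rab7b, passed an unadjusted p under 0.05, on the lower side, beside 1.72% of tested genes that were lower and 1.24% that were higher. No member was without overlap, where 0.22% of tested genes were higher and 0.226% lower in that way. Rab7b held 61.4, 53.9, 258, 40.1 and 49.4 CPM in WT and 39.1, 33.4, 45.7, 20 and 13.4 in ACKR2-/- lung macrophages. WT replicate 3, the library with high H2-Ab1, held more than any other sample, and 1 ACKR2-/- sample, replicate 3 at 45.7 CPM, reached into the WT range. The log2 fold change was -1.61 (SE 0.55, edgeR adjusted p = 0.9999, exact permutation p = 0.0159), and it was -0.74 without WT replicate 3 and -1.77 without WT replicate 5. The direction was thus opposite to that in SPMs at each of these settings.

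The other 5 genes overlapped between genotypes in the lung. Btg2 held 774.5, 953.1, 854.2, 1110 and 594.7 CPM in WT and 719.6, 615.1, 971.8, 583.6 and 614.8 in ACKR2-/- samples (-0.29, SE 0.21, edgeR adjusted p = 0.9999). Chil1 varied more within each genotype than between them, at 247.9, 200.6, 106.0, 106.5 and 6.30 CPM in WT and 355.4, 202.0, 131.8, 4.06 and 57.7 in ACKR2-/- samples (0.17, SE 0.94). Its value changed sign to -0.12 without WT replicate 5, the library without Ackr2 reads, which held the lowest WT value. It changed further, to -0.43, without ACKR2-/- replicate 1, which held the highest value. Lung epithelial cells and alveolar macrophages also make Chil1, and the summed level of 5 lung epithelial markers was 414.9 to 16869 CPM in WT and 250.6 to 18882 CPM in ACKR2-/- lung samples, and that of 6 alveolar macrophage markers 263.0 to 1913 and 232.5 to 1846 CPM, while their part was not tested. Ppfia4 held 28.3 to 69.6 CPM in WT and 23.7 to 53.4 in ACKR2-/- samples (-0.28, SE 0.32), and was at 0.10 without WT replicate 3. Phlda3 held 21.4 to 53.9 and 32.9 to 58.4 CPM and Ctse 7.32 to 10.5 and 6.53 to 16.3, both at 0.17. No member was called when any 1 of the 10 lung samples was left out.

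The genotype effects in monocytes and lung macrophages were compared in 1 fit of all 26 samples. None of the 68 members in that fit had a called difference (edgeR, smallest adjusted p = 0.733), where 0.152% of 17792 genes had one. DESeq2 found none either, and 2 members passed an unadjusted p under 0.05, beside 6.07% of all genes in the fit. For Rab7b the effect in monocytes minus that in the lung was 1.37 (SE 0.58), and for Chil1 it was -1.26 (SE 1.14). The effects in SPMs minus those in monocytes were larger in size, at 7.32 (SE 0.55) for Ppfia4, 5.0 (SE 0.65) for Rab7b, 2.41 (SE 0.37) for Btg2, 1.70 (SE 0.66) for Phlda3, -3.74 (SE 0.40) for Ctse and -5.82 (SE 1.33) for Chil1. They are given as values only, since the SPM contrast chose the segment.

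Levels of the members were compared between cell types per length, as RPKM (CPM divided by gene length in kilobases) in WT samples. The 3 tables were made separately, so cell type and table cannot be told apart and no test is given. Of 68 members compared, 46 had their highest mean in lung macrophages, 17 in monocytes and 5 in SPMs. The 16 members that passed the filter only in lung macrophages are among them, so part of the 46 follows from the filter. Lung epithelial markers summed to 414.9 to 16869 CPM in the same WT lung samples. The part of other lung cells in the 46 was not tested. The lowest mean was listed in SPMs for 48, which includes ties with monocytes at 0 RPKM, such as Prelp and Gm15851. The shares over all genes were not computed. Ctse was 1 of the 5 that were highest in WT SPMs, at 10.1 ± 2.35 RPKM (SD, n = 4), above 4.36 ± 0.712 in monocytes (n = 4) and 2.75 ± 0.434 in lung macrophages (n = 5), without overlap between neighbours in that order. Chil1 had like levels in the 3 cell types, with 47.6 ± 33.5 RPKM in lung macrophages, 36.9 ± 17 in monocytes and 28.4 ± 12.0 in SPMs, all overlapping, and 0.225 ± 0.251 in ACKR2-/- SPMs.

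For Rab7b, Ppfia4 and Btg2, the genes called higher in ACKR2-/- SPMs, WT SPMs held the lowest mean level of the 3 cell types. Rab7b was at 0.860 ± 0.135 RPKM in WT SPMs, 10.2 ± 0.866 in monocytes and 20 ± 20.1 in lung macrophages, the last 2 overlapping, and at 23.0 ± 7.66 in ACKR2-/- SPMs. Ppfia4 was at 0.0223 ± 0.0139 RPKM in WT SPMs, 5.73 ± 2.72 in lung macrophages and 14.3 ± 2.74 in monocytes, and at 3.47 ± 0.472 in ACKR2-/- SPMs. Btg2 was at 10.7 ± 4.44 RPKM in WT SPMs, 62.0 ± 22.7 in monocytes and 312.5 ± 70.3 in lung macrophages, and at 41.2 ± 3.66 in ACKR2-/- SPMs. Phlda3 was highest in the lung macrophage samples, at 27.4 ± 8.09 RPKM, with 0.821 ± 0.192 in WT SPMs and 0.173 ± 0.0771 in monocytes. The lung samples also held lung epithelial markers, whose part in this level was not tested.

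**Figure D4:**
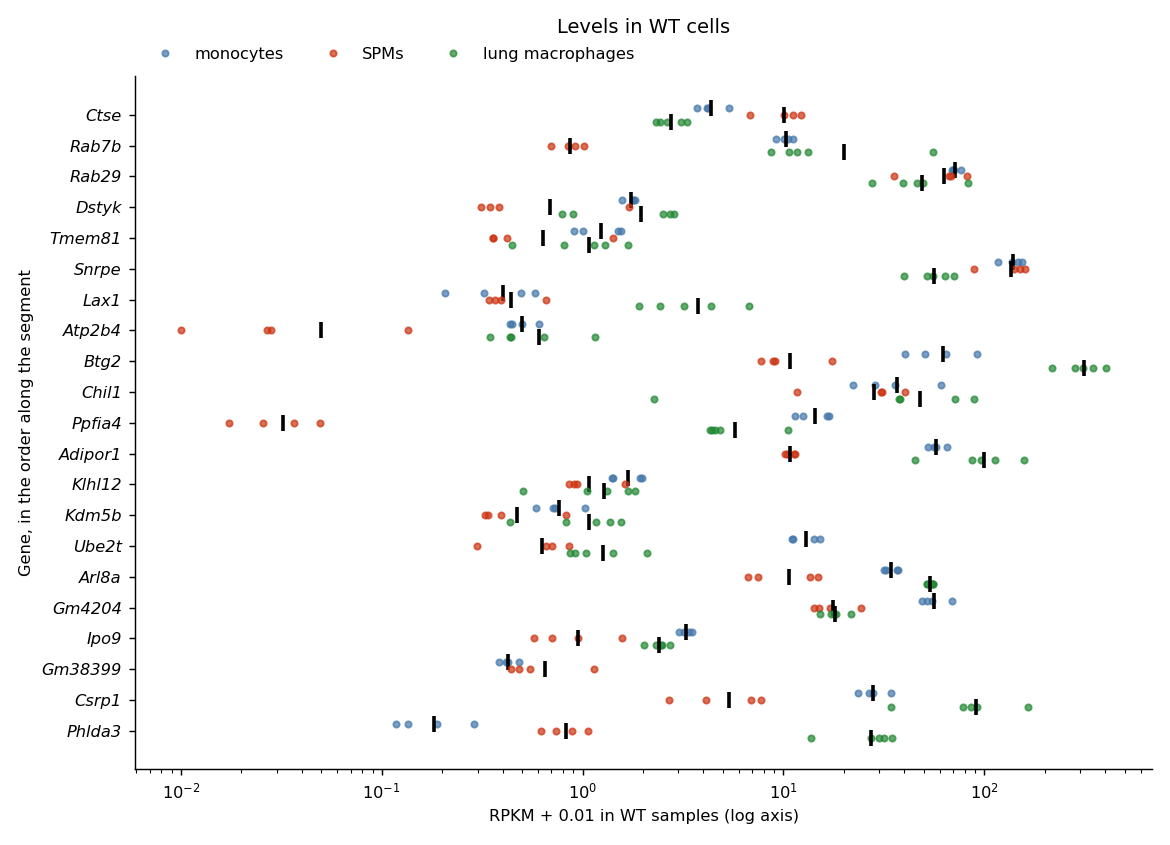
RPKM plus 0.01, on a log axis, in each WT sample of monocytes (blue), SPMs (red) and lung macrophages (green), with a black bar at the mean, for the members named here that have values, in their order along the segment. Ppfia4 lies near 0.02 RPKM in SPMs and above 1 in the other cell types, and Btg2 is highest in lung macrophages at a mean of 312.5.

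The members with the highest levels were mostly genes used by all cells. Snrpe, a core protein of the spliceosome, was first in WT monocytes (138.7 RPKM) and WT SPMs (135.1), and Rab29 was second in both (71.5 and 63.3). In the lung macrophage samples Btg2 was first, followed by Adipor1 (99.9), Csrp1 (91.4), Snrpe (56.3) and Arl8a (53.9). The part of other lung cells in these levels was not tested. Gm4204, at 56.4 RPKM in monocytes and 17.6 in SPMs, is annotated as a processed pseudogene, so its reads may belong to a near-identical copy elsewhere. Several low members overlap other genes on the same strand, such as Gm37333 within Nav1, Gm38399 at the edge of Nav1 and Gm38394 with Zc3h11a. In the stretches they share, reads of such genes cannot be told apart by strand.

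Relatives of the called genes on other chromosomes or outside the segment were not called in any of the 3 cell types. Over all tested genes 1.27% were called in monocytes, 0.0308% higher and 0.0154% lower in SPMs, and 0% in lung macrophages. With shares this low, the lack of calls says little about the relatives. Of 16 tested p53 targets in SPMs 12 had positive and 4 negative log2 fold changes, with a median of 0.14. Cdkn1a, the cell cycle inhibitor, was at 84.7 ± 9.81 CPM in WT and 149.7 ± 48.1 in ACKR2-/- SPMs (SD, n = 4 per genotype, log2 fold change 0.82, edgeR adjusted p = 0.788). Btg1 (0.21), Btg3 (0.42), Tob1 (-0.44) and Tob2 (-0.80), the relatives of Btg2, were split. The liprins Ppfia1 (-0.40), Ppfibp1 (-0.05) and Ppfibp2 (-0.65) had negative values in SPMs, where Ppfia4 was higher. Chil3, another chitinase-like gene, was at 28.4 ± 13.3 CPM in WT and 95.7 ± 109.5 in ACKR2-/- SPMs (1.76, edgeR adjusted p = 0.788), in the direction opposite to Chil1. The aspartic protease Ctsd (0.31) and the GTPases Rab7 (0.23) and Rab32 (0.67) were also tested in SPMs and not called. The only tested Phlda relative, Phlda1, was at -0.99.

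The SPM samples held other cell markers at levels that are given here beside the member values. None of the marker genes of other cell types was called in SPMs, where 0.0308% of all tested genes were called higher and 0.0154% lower. The lack of calls thus says little about other cells. The 6 markers of large peritoneal macrophages, the other macrophages of the cavity, all had positive log2 fold changes (0.28 to 1.17), with a summed level of 262.6 to 1021 CPM in WT and 906.3 to 1767 CPM in ACKR2-/- SPMs and none at 0. The 10 T cell markers summed to 250.3 to 490.4 and 218.4 to 404.2 CPM. For 6 B cell markers the sums were 291.9 to 938.0 and 544.9 to 808.1 CPM, and for 5 dendritic cell markers 152.4 to 1229 and 201.6 to 1064 CPM. Their part in the member values was not tested.

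At the edges of the segment, the first tested gene before Ctse was Fam72a, at a log2 fold change of 0.52 in SPMs (0.817 and 1.21 CPM), -0.22 in monocytes and -0.71 in lung macrophages. The last member, Tnni1, passed the filter in lung macrophages only (0.344 and 0.848 CPM, 1.28), as did Lad1 just outside (1.57 and 0.696 CPM, -1.15). In SPMs the first tested gene past Phlda3 was Tmem9, a lysosomal membrane protein, at 6.57 CPM in WT and 11.5 CPM in ACKR2-/- (0.82). In monocytes Tmem9 was the 1 gene called in the stretch after the segment, where the smallest edgeR adjusted p was 0.0387.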

How the data were processed

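Monocytes, SPMs and MHCII negative lung macrophages were FACS sorted from naïve WT and ACKR2-/- mice, and Novogene sequenced libraries made from SMARTer-amplified poly-A RNA. The authors deposited raw read counts per gene, without normalization, in 1 table per cell type. The submitters' processing notes name HISAT2 2.0.5, featureCounts 1.5.0-p3, DESeq2 and mm10. The lung table ends in 5 summary lines (56.3% of its counts), which were left out. Positions came from the SPM table and equalled those of GENCODE M21 (GRCm38) for 135 of 135 Ensembl genes in the segment. Amplified reads without molecular identifiers are not independent molecules, so intervals cover counting error only.

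For each cell type, genes were filtered by filterByExpr (minimum count 10, minimum total 15), scaled by TMM and compared between genotypes with the quasi-likelihood test of edgeR 4.0.16 in R 4.3.3, with Benjamini-Hochberg adjustment over all tested genes. Calls required an adjusted p below 0.05 together with a log2 fold change beyond 0.5 in size, and differences of genotype effects at the adjusted p alone. RPKM used the gene lengths of the SPM table for all cell types. Exact two-sided permutation tests of mean CPM can reach p = 0.0286 for 4 samples against 4 and 0.00794 for 5 against 5. P-values measure the spread between the samples of a group, which in the lung may be technical. No pair of replicates was identical, and the smallest chi-square per degree of freedom between 2 replicates was 11.6. The fitting steps were tested on simulated data. Other settings tried were boundaries moved by 0.5 Mb, leaving out each sample, blocking on the replicate number, a robust fit, calls on the adjusted p alone, a 1 CPM filter or none, RLE factors, and DESeq2 1.42.0.

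The members, the gene lists and the rule for named genes were chosen with earlier results of these data known. The rule named 6 genes of the segment, called members, up to 5 members without overlap in each direction, the 5 with the highest WT RPKM per cell type, boundary genes and members of the lists. Ptprv, Rnpep, Mdm4 and the unnamed locus were named after their values were seen.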

Additional observations from a re-analysis of the deposited data

Results flagged for a closer look

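The samples of each genotype were searched for a value far from the others by Dixon's test, in 34 groups of 4 or 5 samples. These were the groups of Ctse, Rab7b, Btg2, Chil1, Ppfia4 and Phlda3 in the cell types where each was tested. Other members were not searched. Chance alone would mark about 1 in 20 groups. Rab7b stood apart in WT lung replicate 3 (258.0 CPM, the other WT lung samples 40.1 to 61.4), and Ppfia4 did so in the same library (69.6 CPM, the others 28.3 to 31.7). That library also held 21242 CPM of H2-Ab1. Ppfia4 stood apart in ACKR2-/- lung replicate 4 as well (53.4 CPM, the others 23.7 to 28.6). Btg2 stood apart in WT SPM replicate 1 (47.6 CPM, the others 21.2 to 24.9), the library that most often held the highest or lowest value of its genotype.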

How the results depend on the processing

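The 5 SPM calls kept their direction in every fit. Their number was 3 to 5 when 1 sample was left out (3 without ACKR2-/- replicate 2) and 3 when the segment was narrowed by 0.5 Mb on each side, which removes Ctse and Rab7b, and it lay between 4 and 7 otherwise, with 7 in DESeq2. Btg2 was not called with the filter at 1 CPM or the robust fit. In monocytes the number of called members was 0 in most fits, 2 in DESeq2, 1 when the segment was widened by 0.5 Mb (Tmem9) and 0 to 2 when 1 sample was left out (2 without ACKR2-/- replicate 3). In lung macrophages and for the difference between monocytes and lung macrophages it was 0 in every fit.

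Same-numbered samples of the 2 genotypes deviated together in some pairs only (correlations -0.118 to 0.643), so the numbers were not taken as pairs. With the replicate number as a block, 5 members were called in SPMs and 0 in monocytes and in lung macrophages, and in SPMs Atp2b4 turned to 0.63 and Dstyk to 0.04. Atp2b4 was at 0.03 without a filter, and Kdm5b in lung macrophages was at -0.00 with the filter at 1 CPM.

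Small differences changed sign when 1 sample was left out, none of them called. In monocytes the ranges were -0.18 to 0.07 for Ppfia4, -0.13 to 0.13 for Rab29, -0.11 to 0.08 for Gm4204, -0.08 to 0.06 for Ipo9 and -0.01 to 0.26 for Csrp1. In SPMs they were -0.38 to 1.55 for Atp2b4, -0.63 to 0.59 for Dstyk and -0.13 to 0.22 for Rab29, and leaving out WT replicate 1 gave 1.55, 0.59 and -0.13. In lung macrophages they were -0.08 to 0.30 for Ctse, -0.43 to 0.54 for Chil1, -0.57 to 0.10 for Ppfia4, -0.10 to 0.30 for Dstyk, -0.01 to 0.38 for Ube2t, -0.12 to 0.22 for Klhl12, -0.17 to 0.18 for Kdm5b and -0.35 to 0.22 for Csrp1. The cause of these changes was not tested. Of the 953 refits of single members, 900 kept both direction and call.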
